A study of Mus musculus with 4 samples.

Results

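Mitosis and kinetochore genes encode the proteins that condense, attach and separate chromosomes when a cell divides. The 55 genes described here were taken by symbol from a list of such genes, and all 55 were found among the 27179 rows of the count table. They were read in group 2 innate lymphoid cells (ILC2s), lymphoid cells that carry no rearranged antigen receptor and make cytokines such as IL-5 and IL-13. The cells came from the lamina propria of the large intestine of WT C57BL/6 mice, sorted as CD45.2+ Lin- CD127+ KLRG1+ cells. All cultures were held for 5 days in a mix of IL-33, IL-25, IL-7, and IL-2, each at 10 ng/mL. They were then treated as controls, titled Ctrl and called vehicle here (2 libraries), or with 100 μM deoxycholic acid (DCA), a secondary bile acid made by gut bacteria (2 libraries). The treatment lasted 16 hours according to the deposited design text and 24 hours according to the methods. The methods give differing age ranges for mice of the study, and none is tied to these libraries alone. No source used here says whether the 2 libraries of a treatment came from separate mice or cultures. The p-values thus rest on the spread between these libraries, estimated in part across genes, and that spread may be technical.

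A dividing cell builds a spindle of microtubules, and each chromosome is tied to it by a kinetochore assembled on centromeric chromatin. The kinase CDK1, bound to cyclin A or cyclin B, drives entry into mitosis, and a checkpoint holds back the separation of chromosomes until all kinetochores are attached. RNAs of most of these genes accumulate in G2 and mitosis, so in a bulk culture their level depends on how many cells are dividing. Fewer dividing cells and less RNA per dividing cell cannot be told apart in these libraries. ILC2s divide in culture with IL-2, IL-7, and IL-33.

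Total counts were 35838342 and 26564059 in vehicle replicates 1 and 2 and 32102232 and 244165712 in DCA replicates 1 and 2. Of 13 ILC2 markers, 12 were above 30 CPM in every library, among them Gata3, Il1rl1, and Il5, whereas Thy1 was at 0 CPM in vehicle replicate 2 and at most 4.24 CPM elsewhere. Il5 and Id2 made up most of their sum of 15631 to 20378 CPM (counts scaled to library size by edgeR's TMM method, so that libraries of unlike depth can be set side by side). Cd4, Cd8a, Pax5, Csf1r, Itgax, and Ncr1, which define other leukocytes, had no counts in any library. The summed level of the 7 T cell markers ranged from 15.5 to 34.7 CPM, that of the 5 B cell markers from 37.7 to 55.1 CPM, that of the 6 epithelial markers from 7.73 to 13.5 CPM, and that of the 6 ILC3 and NK cell markers from 0 to 1.48 CPM. Cd3g was the highest T cell marker, at 10.5 to 25.5 CPM, and Cd79b made up nearly all of the B cell sum, at 37.4 to 55.1 CPM. The 6 mast cell and basophil markers summed to between 159 and 362 CPM, nearly all of it Kit (158 to 359 CPM), with Fcer1a, Ms4a2, and Mcpt1 at 0 counts. The 7 myeloid markers summed to 24.6 CPM in vehicle replicate 1 and less than 1 CPM below that in vehicle replicate 2, and to 8.26 and 10.2 CPM with DCA, with Csf1r and Itgax at 0, and their part in the results below was not tested. None of the mitosis genes was near the detection limit. The lowest count of any of them in any library was 227, and their levels ranged from 7.02 to 546 CPM, so each passed the filter of a mean of at least 1 CPM.

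DCA was compared with vehicle to ask whether the division program of ILC2s differed at the RNA level. With 11184 genes in edgeR's quasi-likelihood test, a Benjamini-Hochberg adjusted p under 0.05 was reached by 0 of the 55 genes and by 0.0% of all genes. At an unadjusted p under 0.05, 2 of the 55 were lower with DCA (3.64%, against 1.73% of all genes tested) and 0 were higher (against 2.54% of all genes tested). DESeq2 called 0 of the 55 at an adjusted p under 0.05 (1.14% of all genes tested passed) and found 4 at an unadjusted p under 0.05. These 4 were all lower (7.27%, against 3.03% of all genes lower and 7.01% in either direction). The fitted log2 fold change was below 0 for 45 of the 55 genes (81.8%, against 49.3% of all genes tested), and its median was -0.24, beside 0.01 over all genes tested. Both DCA libraries were below both vehicle libraries for 14 genes (25.5%, against 14.7% of all genes tested) and above both for 3 (5.45%, against 18.6%). The other 38 genes overlapped between treatments.

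The count of lower genes and the median depended on vehicle replicate 2. Kif2c stayed lower without it (log2 fold change -0.99), which is likely for any gene with both DCA libraries below both vehicle libraries. The 55 genes summed to 6410 CPM in vehicle replicate 1, 9501 CPM in vehicle replicate 2, 6549 CPM in DCA replicate 1, and 7168 CPM in DCA replicate 2. Both DCA libraries thus lay between the vehicle libraries. Vehicle replicate 2 was the highest of the 4 libraries for 39 of the 55 genes (70.9%, against 25.3% of all genes tested) and the lowest for 1, Ndc80. The median of log2(CPM + 1) over the 55 genes was 6.61 and 7.09 in the vehicle libraries and 6.75 in each DCA library, whereas the median over all genes tested lay between 4.69 and 4.82 in every library. Without vehicle replicate 2, 26 of the 55 genes were lower with DCA and the median log2 fold change was 0.04. Without vehicle replicate 1, 50 were lower and the median was -0.50. The difference between replicates of a treatment exceeded the difference between treatments for 45 of the 55 genes (81.8%, against 78.3% of all genes tested).

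**Figure D1:**
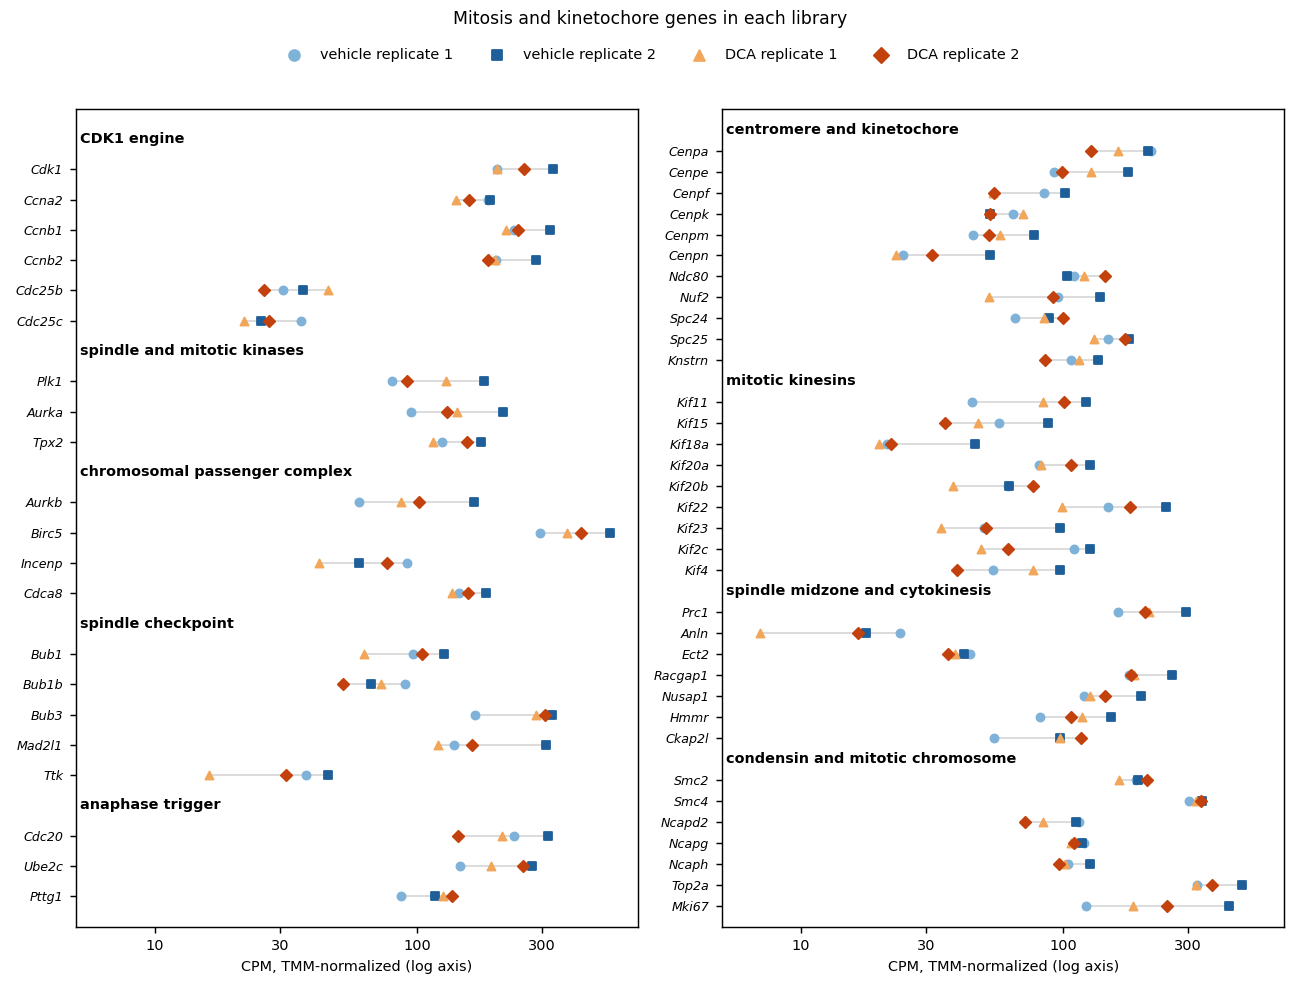
TMM-normalized CPM (log axis) of each of the 55 genes in the 4 libraries, grouped by role, with a grey line from the lowest to the highest library. Vehicle replicate 2 (dark blue squares) is the highest library for 39 genes. Both DCA libraries fall between the vehicle libraries for 17 of the 55, and for 22.8% of all genes tested.

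The promoters of these genes shared sequence features that the choice of genes did not use. The elements below are known from promoters of genes expressed in G2 and mitosis, the cell cycle genes homology region (CHR), bound by the MuvB complexes, and the CCAAT box, bound by NF-Y. A RefSeq window from 250 bases before to 50 bases after the start of transcription (GRCm38.p6) was matched for 47 of the 55 genes. Searched on both strands as TTTGAA or TTCGAA, a CHR was present in 36 of the 47 (76.6%), compared with 16.6% of the 8806 genes tested that have a window and 21.7% of all 27025 genes with a window. Within 50 bases of the start, a CHR was found for 32 of the 47 (68.1%), compared with 4.41% of the genes tested and 6.12% of all genes. CCAAT, on either strand, was present for 34 of the 47 (72.3%), compared with 43.8% of the genes tested, and both elements together were present for 31 (66.0%), compared with 7.18%. A match is a run of letters, and binding was not measured. The median log2 fold change was -0.23 for the 36 genes with a CHR in the window and -0.25 for the 11 genes without it, values close to each other, with no test.

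To show how the elements are placed, the stretches upstream of the start of 6 of these genes that carry both are printed 5′ to 3′ and end at the base before the start, with CHR and CCAAT matches on either strand in capitals (TTCAAA and ATTGG are the reverse complements, and CCAATTGG holds overlapping matches on both strands).
Cdk1: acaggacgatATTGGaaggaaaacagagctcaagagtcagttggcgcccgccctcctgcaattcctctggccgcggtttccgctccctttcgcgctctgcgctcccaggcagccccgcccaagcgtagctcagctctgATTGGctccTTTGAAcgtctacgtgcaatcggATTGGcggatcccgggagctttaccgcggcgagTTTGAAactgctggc
Ccnb2: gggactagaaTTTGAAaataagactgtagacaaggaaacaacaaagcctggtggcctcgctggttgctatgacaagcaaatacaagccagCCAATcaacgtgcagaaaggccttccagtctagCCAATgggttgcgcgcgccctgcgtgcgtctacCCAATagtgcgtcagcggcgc
Bub1b: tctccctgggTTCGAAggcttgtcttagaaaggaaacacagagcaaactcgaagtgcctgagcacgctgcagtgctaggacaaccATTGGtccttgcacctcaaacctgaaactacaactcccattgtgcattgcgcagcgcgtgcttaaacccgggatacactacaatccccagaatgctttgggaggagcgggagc
Bub3: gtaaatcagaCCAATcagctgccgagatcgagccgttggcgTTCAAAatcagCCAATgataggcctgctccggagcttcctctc
Cdc20: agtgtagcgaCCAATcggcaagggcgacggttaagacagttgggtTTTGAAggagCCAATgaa
Ube2c: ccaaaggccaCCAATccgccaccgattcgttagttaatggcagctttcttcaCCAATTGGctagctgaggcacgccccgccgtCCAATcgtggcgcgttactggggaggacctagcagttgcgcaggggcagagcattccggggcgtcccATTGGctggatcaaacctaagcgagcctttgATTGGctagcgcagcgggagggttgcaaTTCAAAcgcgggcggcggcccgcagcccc
On GRCm38.p6 these stretches lie at chr10:69352913-69353130 (minus strand) for Cdk1, chr9:70421555-70421731 (minus strand) for Ccnb2, chr2:118598013-118598210 (plus strand) for Bub1b, chr7:131560286-131560369 (plus strand) for Bub3, chr4:118437344-118437406 (minus strand) for Cdc20, and chr2:164769691-164769928 (plus strand) for Ube2c. A printed CHR begins within 50 bases of the start in Cdk1, Bub3, Cdc20, and Ube2c. Ccnb2 and Bub1b have theirs farther out, and each holds another CHR just after the start, which is not printed. CCAAT letters lie on either side of the CHR nearest to the start in Bub3 and Cdc20.

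**Figure D2:**
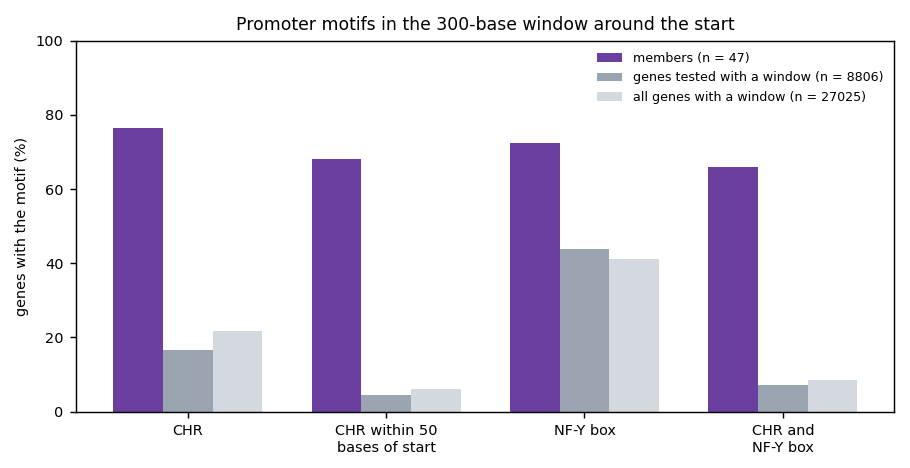
Share of genes (%) whose promoter window holds a CHR, a CHR within 50 bases of the start, a CCAAT (NF-Y) box, or both, for the 47 mitosis and kinetochore genes with a window, for the 8806 genes tested with a window, and for all 27025 genes with a window. The bars of the mitosis genes stand at 76.6%, 68.1%, 72.3%, and 66.0%, and those of the genes tested at 16.6%, 4.41%, 43.8%, and 7.18%.

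Kif2c and Cenpf were the 2 genes with an unadjusted p under 0.05. Kif2c (Entrez 73804, chr4:117159633-117182624 on the minus strand of GRCm38) encodes a kinesin that takes microtubules apart at their ends and so frees wrongly attached kinetochores. It was at 110 and 127 CPM with vehicle and at 48.9 and 62.0 CPM with DCA. The DCA libraries were well below the vehicle libraries, and the gap between treatments exceeded the gap within either. For Kif2c and Cenpf alike, their choice by p in the same libraries makes such a separation likely. The log2 fold change of Kif2c was -1.10 with a standard error of 0.20, the DCA mean being 0.468 times that of vehicle (edgeR's quasi-likelihood test, unadjusted p = 0.00777, Benjamini-Hochberg adjusted p = 0.999). It was the only one of the 55 genes whose fitted change exceeded 1 on the log2 scale in size, a size that 18.2% of all genes tested exceeded. With DESeq2 the adjusted p of Kif2c was 0.0682, the lowest of 12 alternatives, and the highest was 1.0. Its log2 fold change lay between -1.28 and -0.94 when each library was left out, and the unadjusted p missed 0.05 without DCA replicate 1.

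Cenpf (Entrez 108000, chr1:189640606-189688107, minus strand) encodes a large protein of the outer kinetochore. It was at 84.8 and 102 CPM with vehicle and at 54.3 and 54.7 CPM with DCA, so that the DCA libraries were nearly equal and both below vehicle. The log2 fold change of Cenpf was -0.77 with a standard error of 0.13 (same edgeR test, unadjusted p = 0.0320, adjusted p = 0.999). Among the alternatives, the adjusted p of Cenpf lay between 0.293 and 1.0, and 9 of the 12 kept its unadjusted p below 0.05. With each library left out the log2 fold change lay between -0.93 and -0.64.

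**Figure D3:**
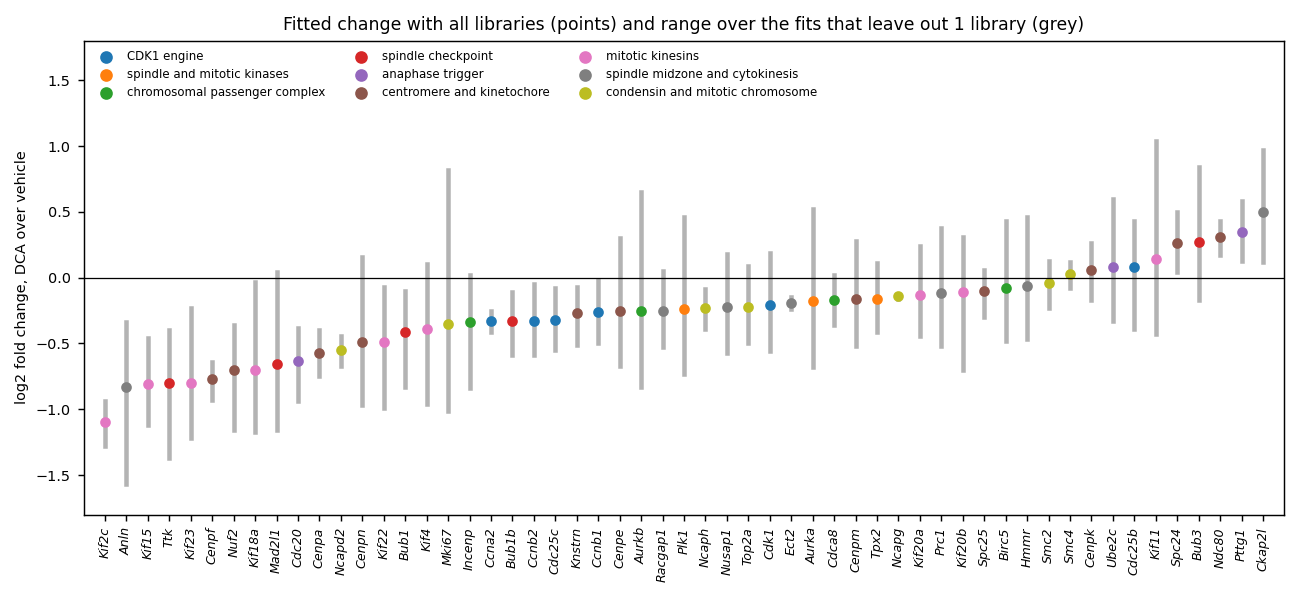
Fitted log2 fold change of DCA over vehicle for each of the 55 genes with all 4 libraries (points, colored by role) and the range over the 4 fits that each left out 1 library (grey bars). Kif2c is the lowest at -1.10 and its bar ends at -0.94, whereas the bars of 29 genes cross 0, among them Mki67, from -1.01 to 0.82.

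Genes of the CDK1 engine came first in the order of events. Cdk1, the mitotic kinase itself, was at 202 and 332 CPM with vehicle and at 203 and 257 CPM with DCA, with the DCA libraries inside the range of vehicle. Ccnb1, which encodes cyclin B1, was at 234 and 321 CPM with vehicle and at 219 and 244 CPM with DCA. A processed copy, Ccnb1-ps, is 99.2% identical to Ccnb1 over 1287 bases, and although it had at most 2.21 CPM of its own, reads could have been split between them. Further copies, Gm12856 (98.1% over 1294 bases), Gm8416 (97.3% over 1290 bases), and Gm7483 (96.6% over 383 bases), had no row under these names. Ccna2, encoding cyclin A2, was tighter, at 186 and 190 CPM with vehicle and at 141 and 158 CPM with DCA, and its libraries did not overlap between treatments, although 10.4% of its exon length is shared with Exosc9 on the opposite strand (log2 fold change -0.33, standard error 0.08, unadjusted p = 0.194, edgeR's quasi-likelihood test). Ccnb2, encoding cyclin B2, was also lower in both DCA libraries, at 199 and 186 CPM against 200 and 285 CPM, but DCA replicate 1 and vehicle replicate 1 differed by less than 1 CPM. Cdc25b and Cdc25c encode phosphatases that activate CDK1. Cdc25b was at 30.9 and 36.8 CPM with vehicle and at 45.7 and 26.0 CPM with DCA, and Cdc25c, part of which has a copy in Gm3550, ranged from 21.9 to 36.1 CPM, both with overlap between treatments.

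Plk1, Aurka, and Tpx2 encode the kinases that mature the spindle poles and the factor that activates Aurora A on the spindle. All 3 were highest in vehicle replicate 2. Plk1 was at 80.7 and 181 CPM with vehicle and at 129 and 92.0 CPM with DCA, and Aurka was at 94.7 and 214 CPM with vehicle and at 142 and 130 CPM with DCA. In both genes the DCA libraries fell between the vehicle libraries, which differed by 2.24-fold for Plk1 and 2.26-fold for Aurka. Tpx2 was at 125 and 176 CPM with vehicle and at 115 and 155 CPM with DCA, also with overlap. The sum of the 3 genes was 301 and 571 CPM with vehicle and lay between these, at 387 and 377 CPM, with DCA.

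The chromosomal passenger complex, which corrects attachments and later directs cytokinesis, consists of the kinase Aurora B (Aurkb), survivin (Birc5), INCENP (Incenp), and borealin (Cdca8). Birc5 was at 295 and 546 CPM with vehicle and at 375 and 423 CPM with DCA, the highest single value of any of the 55 genes being that of vehicle replicate 2. Aurkb was at 60.4 and 165 CPM with vehicle and at 87.2 and 102 CPM with DCA. Incenp went the other way between the vehicle libraries, at 91.8 and 60.1 CPM, and was at 42.4 and 77.2 CPM with DCA. All 4 genes overlapped between treatments, and the replicates of a treatment differed more than the treatments did for each of them. Per kb of exon, the levels of the 4 subunit RNAs ranged from 20.9 CPM for Incenp to 120 CPM for Birc5, a mean over the libraries.

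Spindle checkpoint genes had a median log2 fold change of -0.41, with 4 of 5 below 0. Mad2l1 encodes MAD2, which binds and restrains the anaphase activator CDC20. It was at 138 and 310 CPM with vehicle and at 120 and 163 CPM with DCA (log2 fold change -0.66, standard error 0.62, unadjusted p = 0.157, edgeR). The vehicle libraries spanned more than the difference between treatments, and its log2 fold change was 0.04 without vehicle replicate 2. Ttk, which encodes the kinase MPS1 that starts the checkpoint signal, was at 37.7 and 45.7 CPM with vehicle and at 16.1 and 31.6 CPM with DCA, apart from vehicle in both DCA libraries (log2 fold change -0.80, standard error 0.49, unadjusted p = 0.136). The checkpoint kinase gene Bub1 was at 96.7 and 127 CPM with vehicle and at 62.9 and 105 CPM with DCA, and Bub1b, which encodes BUBR1, was at 90.0 and 67.1 CPM with vehicle and at 72.9 and 52.3 CPM with DCA. Bub3, whose product carries both to kinetochores and which cells also use outside mitosis, was the exception in sign, at 166 and 327 CPM with vehicle and at 284 and 308 CPM with DCA.

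The anaphase trigger joins CDC20 and UBE2C, which turn on and feed the anaphase-promoting complex, with securin (Pttg1), which that complex destroys. Cdc20 was at 234 and 317 CPM with vehicle and at 212 and 144 CPM with DCA, below vehicle in both DCA libraries (log2 fold change -0.63, standard error 0.35, unadjusted p = 0.0723, edgeR's quasi-likelihood test). Pttg1 was at 87.3 and 117 CPM with vehicle and at 126 and 136 CPM with DCA, above vehicle in both (log2 fold change 0.35, standard error 0.22, unadjusted p = 0.236). The activator and its target thus differed in sign, though neither passed the test. Ube2c was at 146 and 274 CPM with vehicle and at 192 and 253 CPM with DCA, inside the vehicle range, and shares 22.8% of its exon length with Tnnc2 on the opposite strand.

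Centromere and kinetochore genes were the largest group, with 11 genes and a median log2 fold change of -0.25. Cenpa, which encodes the histone H3 variant that marks centromeres, was at 217 and 211 CPM with vehicle and at 162 and 128 CPM with DCA. The vehicle libraries were alike and both DCA libraries lay below them (log2 fold change -0.57, standard error 0.17, unadjusted p = 0.0532, edgeR). Cenpe, encoding a kinetochore motor, was at 92.5 and 177 CPM with vehicle and at 128 and 98.8 CPM with DCA. The inner kinetochore genes Cenpk, Cenpm, and Cenpn ranged from 23.1 to 77.4 CPM, and Knstrn, which encodes a spindle and kinetochore adaptor, from 85.8 to 136 CPM, all with overlap between treatments.

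The 4 subunits of the NDC80 complex, which grips microtubules as a unit, differed in sign. Ndc80 was at 110 and 104 CPM with vehicle and at 120 and 145 CPM with DCA, above vehicle in both DCA libraries. Nuf2, whose product pairs with NDC80, was at 95.4 and 139 CPM with vehicle and at 52.3 and 91.7 CPM with DCA, below vehicle in both. The log2 fold changes were 0.31 (standard error 0.14) for Ndc80 and -0.70 (standard error 0.48) for Nuf2, with unadjusted p of 0.264 and 0.107 in edgeR's quasi-likelihood test, and the difference between them was not tested. Spc24 was at 65.7 and 88.4 CPM with vehicle and at 84.8 and 100 CPM with DCA, and Spc25 ranged from 132 to 178 CPM with overlap. Per kb of exon the 4 RNAs ranged from 34.3 CPM for Nuf2 to 99.5 CPM for Spc25, a 2.90-fold spread.

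**Figure D4:**
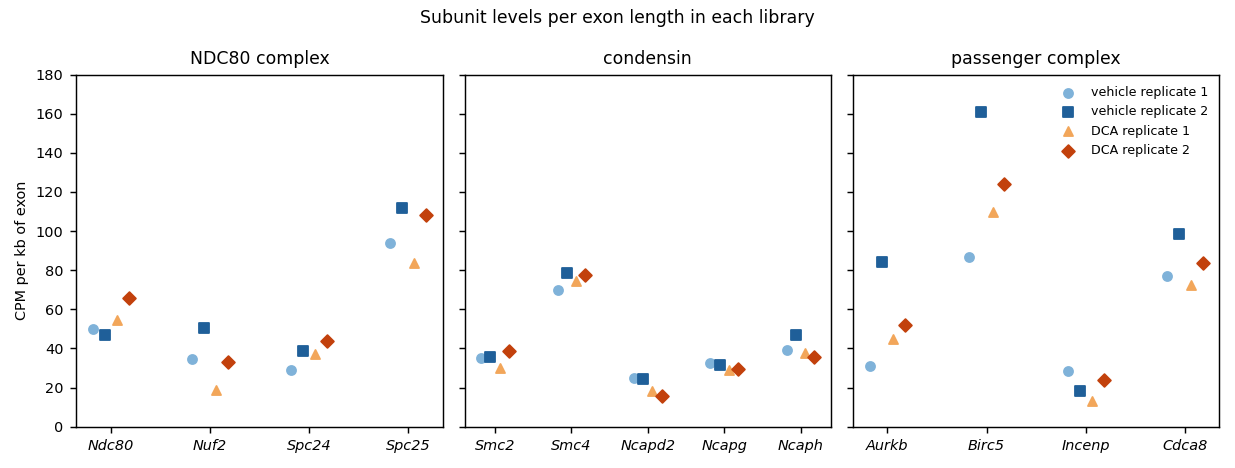
CPM per kb of exon of the subunits of the NDC80 complex, condensin, and the chromosomal passenger complex, with 1 point per library. Ndc80 is higher and Nuf2 lower in both DCA libraries, Ncapd2, Ncapg, and Ncaph are lower in both DCA libraries, and Birc5 and Aurkb are highest in vehicle replicate 2. Of all genes tested, 14.7% were lower and 18.6% higher in both DCA libraries in this way.

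Mitotic kinesins had a median log2 fold change of -0.49, and 8 of the 9 were below 0. In addition to Kif2c, both DCA libraries were below vehicle for Kif15, a motor that helps keep spindle poles apart, which was at 57.0 and 88.0 CPM with vehicle and at 47.5 and 35.4 CPM with DCA (log2 fold change -0.81, standard error 0.37, unadjusted p = 0.0681, edgeR). Kif11, the main motor that separates the poles, differed 2.72-fold between the vehicle libraries, at 45.2 and 123 CPM, and was at 84.2 and 101 CPM with DCA. Its fitted change was 0.14, the only kinesin above 0, and it was 1.04 without vehicle replicate 2. Kif23, a motor of the central spindle, was at 50.2 and 97.8 CPM with vehicle and at 34.4 and 50.8 CPM with DCA, with an overlap of less than 1 CPM. Kif18a, Kif20a, Kif20b, Kif22, and Kif4 ranged from 19.8 CPM for Kif18a to 247 CPM for Kif22, and each overlapped between treatments. All 9 kinesin genes were higher in vehicle replicate 2 than in vehicle replicate 1. Exons of Kif20a overlap those of Cdc23 on the opposite strand over 31.8% of their length, and since the strand setting of the counting is not given, its reads are uncertain.

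Of the genes for the spindle midzone and cytokinesis, Anln encodes the contractile ring scaffold anillin. It had the lowest mean of all 55 genes in each treatment, at 23.9 and 17.8 CPM with vehicle and at 7.02 and 16.5 CPM with DCA. Both DCA libraries were below vehicle, and DCA replicate 1 accounted for most of the difference (log2 fold change -0.83, standard error 0.60, -0.34 without DCA replicate 1). Ect2, the exchange factor that activates RhoA at the division plane, was at 44.2 and 41.9 CPM with vehicle and at 38.7 and 36.6 CPM with DCA. The spread of Ect2 was small and its change was -0.19 on the log2 scale (standard error 0.05, unadjusted p = 0.589, edgeR). Prc1, which bundles midzone microtubules, was at 162 and 296 CPM with vehicle and at 214 and 206 CPM with DCA, and Racgap1, the partner of Kif23, was at 179 and 261 CPM with vehicle and at 187 and 182 CPM with DCA. In both, the DCA libraries lay between the vehicle libraries. Hmmr, a spindle assembly factor, was likewise inside the vehicle range, at 118 and 107 CPM against 82.0 and 152 CPM, and so was Nusap1. Ckap2l, a spindle protein, had the highest fitted change of the 55 genes, at 54.7 and 97.3 CPM with vehicle and at 97.9 and 117 CPM with DCA (log2 fold change 0.50, standard error 0.43, unadjusted p = 0.205, edgeR), although DCA replicate 1 and vehicle replicate 2 differed by less than 1 CPM. Prc1 shares 21.8% of its exon length with Rccd1 on the opposite strand.

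Condensin, which compacts chromosomes, consists of the ATPases SMC2 and SMC4 and, in its first form, of the subunits encoded by Ncapd2, Ncapg, and Ncaph. Smc4 was at 303 and 340 CPM with vehicle and at 321 and 336 CPM with DCA, and Smc2 was at 190 and 194 CPM with vehicle and at 163 and 210 CPM with DCA. The 3 non-ATPase subunits were each below vehicle in both DCA libraries, as were 14.7% of all genes tested. Ncapd2 was at 115 and 112 CPM with vehicle and at 84.1 and 71.9 CPM with DCA (log2 fold change -0.55, standard error 0.11, unadjusted p = 0.0778, edgeR). The log2 fold changes of Ncaph and Ncapg were -0.23 (standard error 0.14) and -0.14 (standard error 0.02), with unadjusted p of 0.405 and 0.585 in the same test. Ncapg shares 20.8% of its exon length with Lcorl on the opposite strand. Per kb of exon, the 5 condensin RNAs ranged from 20.7 CPM for Ncapd2 to 75.3 CPM for Smc4.

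Mki67 and Top2a encode Ki-67, the coat of mitotic chromosomes used as a marker of cycling cells, and topoisomerase II alpha, which untangles DNA. Mki67 was at 123 and 431 CPM with vehicle and at 185 and 250 CPM with DCA. The vehicle libraries differed 3.50-fold, the widest replicate gap of the 55 genes, and the DCA libraries lay between them. Its log2 fold change was -0.35 (standard error 0.92, unadjusted p = 0.552, edgeR), and it was -1.01 without vehicle replicate 1 and 0.82 without vehicle replicate 2. Top2a was at 325 and 481 CPM with vehicle and at 321 and 371 CPM with DCA, with a smaller gap in the same direction.

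Other lists of cell cycle genes, chosen for their role, showed whether the order of the libraries was shared. The 52 DNA replication genes summed to 8489 and 11099 CPM with vehicle and to 8365 and 8810 CPM with DCA, again with vehicle replicate 2 above the rest, and 38 of the 52 had a log2 fold change below 0 (median -0.18). The sum of the 55 mitosis genes divided by that of the replication genes stood at 0.755 and 0.856 with vehicle and 0.783 and 0.814 with DCA, so this ratio too lay within the vehicle range. The 106 other mitosis genes summed to 6933 and 7922 CPM with vehicle and to 6681 and 6919 CPM with DCA, and 74 of them were below 0 (median -0.20). The 22 G1 cyclins, CDKs and CDK inhibitors had another order, at 2462 and 2720 CPM with vehicle and at 3039 and 2474 CPM with DCA, with a median of 0.01 over the 19 tested.

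**Figure D5:**
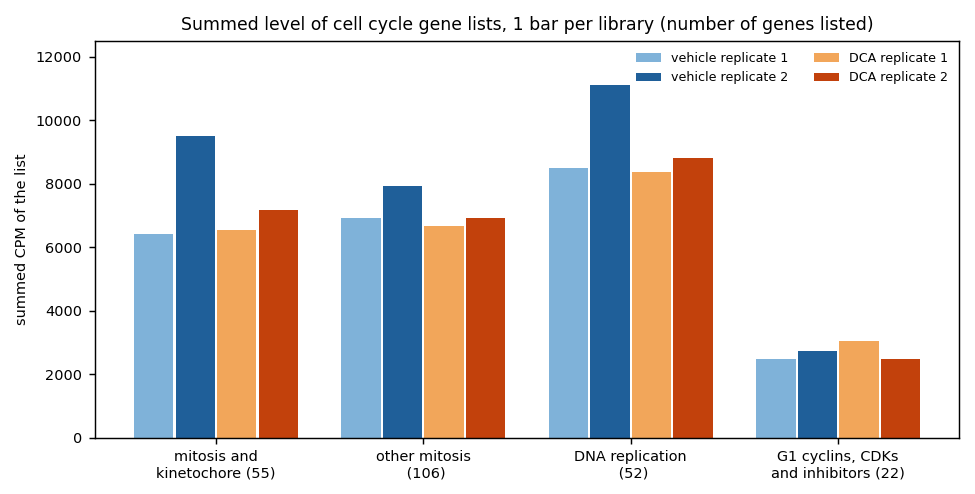
Summed CPM of 4 lists of cell cycle genes, with 1 bar per library and the number of genes listed in parentheses. Vehicle replicate 2 is the highest bar for the 55 mitosis genes (9501 CPM), the other mitosis genes, and the DNA replication genes, and DCA replicate 1 is the highest for the G1 genes (3039 CPM).

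Among the 106 other mitosis genes, edgeR's quasi-likelihood test gave 3 higher and 3 lower genes when p was left unadjusted (under 0.05) and 0 after adjustment. Each 3 are 2.83% of the list, near the 2.54% of all genes that were higher and the 1.73% that were lower. Rad21, the cleavable subunit of the cohesin ring that holds sister chromatids together until anaphase, was at 102 and 111 CPM with vehicle and at 45.3 and 58.0 CPM with DCA (log2 fold change -1.04), and Smc1a, which encodes a cohesin ATPase, was at 179 and 168 CPM with vehicle and at 298 and 253 CPM with DCA (0.67). Fzr1, the activator that follows CDC20 on the anaphase-promoting complex, was at 51.0 and 45.2 CPM with vehicle and at 99.4 and 78.5 CPM with DCA, and Lin37, a subunit of MuvB, was at 48.4 and 47.3 CPM with vehicle and at 101 and 83.6 CPM with DCA. Plk4, which starts centriole duplication, was at 70.6 and 109 CPM with vehicle and at 43.3 and 48.5 CPM with DCA, and Aspm, a spindle pole protein, was at 31.3 and 43.9 CPM with vehicle and at 10.8 and 17.9 CPM with DCA. In all 6 genes the libraries of the treatments did not overlap, which their choice by p in the same libraries makes likely. Each had an adjusted p of 0.999. Of all 106, both DCA libraries were below both vehicle libraries for 27 and above for 9, against 14.7% and 18.6% of all genes tested. Of the DNA replication genes only Gins3, a subunit of the replicative helicase, had an unadjusted p under 0.05, at 43.2 and 35.2 CPM with vehicle and at 12.1 CPM in each DCA library, which is 1 of 52 genes (1.92%, against 1.73% of all genes lower).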

How the data were processed

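RNA was sequenced from 4 libraries of cultured ILC2s, grouped by their titles as Ctrl (called vehicle here) or DCA. The RNA-seq methods describe cells with or without DCA and name no solvent. The authors made full-length cDNA (SMART-Seq HT), filtered paired reads using Cutadapt 1.9, and mapped them to the mm10 build using hisat2 2.2.1. What was deposited are raw read counts for each gene in whole numbers, under a name that refers to FPKM. The counting tool and its strand setting are not given in the sources used here. The 1275 rows without a symbol were kept under their identifiers.

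TMM scaling and the two-sided quasi-likelihood test of edgeR 4.0.16 (R 4.3.3) were applied to 11184 genes whose mean reached 1 CPM, with p adjusted by Benjamini-Hochberg. Each standard error was computed on log2(CPM + 1) across the replicates of that gene alone. The p of edgeR also draws on the spread of other genes, so a small standard error can stand beside a large p. In a simulation of this comparison at the same spread, where 200 of 11183 genes differed by 2 on the log2 scale, 73 genes were called and 71 of them had been changed. The largest fitted change of the 55 mitosis genes was -1.10, so the simulation does not show how often changes of their size would be called. With 2 libraries against 2, an exact permutation p cannot go below 0.333. Counting intervals are not given, since PCR copies cannot be told from separate molecules here.

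Lengths are of the union of exons of each gene (GENCODE M21, GRCm38), so a long rarely used exon lowers a level per kb. Promoter windows and gene positions are from RefSeq on GRCm38.p6. The genes and lists were chosen with earlier results of these data known. Values of every library are given for a set of genes fixed by role, for any with an unadjusted p under 0.05, and for the 5 per direction with the largest change and no overlap. Bub1, Nuf2, and Smc4 were added after their values were seen. Genes of other lists are named where their unadjusted p was under 0.05. Copies were sought at 95% identity over at least 150 bases. Alternatives were scaling by median of ratios or by total counts, a filter of 5 CPM or none, DESeq2 1.42.0, limma 3.58.1 on log2(CPM + 1), the replicate number as a block, leaving out each library, and DCA replicate 2 thinned to 31501544 counts.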

Additional observations from a re-analysis of the deposited data

How the results depend on the processing

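No alternative called any of the 55 genes at an adjusted p under 0.05, and the smallest such p was 0.0682, with DESeq2. Over all genes the number called, 0 at first, was 36 without a filter on low counts, 128 with DESeq2, and from 0 to 20 when each library was left out, the 20 without vehicle replicate 1. The number of the 55 genes at an unadjusted p under 0.05, 2 at first, was 7 without a filter (12.7%, against 4.78% of all genes), 4 with DESeq2 (7.27%, against 7.01%), 4 with the replicate block (7.27%, against 4.02%), and from 0 (without DCA replicate 1, against 0.956%) to 11 (without vehicle replicate 1, against 1497 of 11118 genes) when each library was left out. Without vehicle replicate 2 it was 5 (against 1231 of 11192 genes), of which 4 were higher. The genes counted without a filter, with DESeq2, with the replicate block, and without vehicle replicate 1 were all lower with DCA. The shares and counts of all genes above hold both directions, so they are no matching measure for genes counted as lower or higher alone. For the fits that left out a library, shares by direction are not given, since a treatment then rests on a lone library. Of all genes, 2.15% were lower at this p without a filter, 3.03% with DESeq2, and 1.7% with the replicate block. A fit that leaves a treatment with a lone library assumes that it varies like the other treatment. The cause was not tested. The median log2 fold change of the 55 genes, -0.24 at first, stayed between -0.27 and -0.19 with all libraries and was -0.50 when vehicle replicate 1 was left out and 0.04 when vehicle replicate 2 was. The count of genes without overlap was 17, and 19 with total-count scaling.

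Whether libraries with the same replicate number share an origin is not stated. Their deviations had a correlation of only 0.0197 over genes, which cannot decide this with 2 libraries per treatment. The median with the block was -0.19. With all libraries, only Hmmr turned direction, to 0.0047 with limma and 0.0046 with the replicate block. When a library was left out, 26 genes kept their direction in each fit and 29 turned in at least 1, 21 of them without vehicle replicate 2. Their log2 fold changes ranged as follows: Cdk1 from -0.56 to 0.19, Cdc25b from -0.39 to 0.43, Plk1 from -0.73 to 0.46, Aurka from -0.68 to 0.52, Tpx2 from -0.41 to 0.11, Aurkb from -0.83 to 0.65, Birc5 from -0.48 to 0.43, Incenp from -0.84 to 0.02, Cdca8 from -0.36 to 0.02, Bub3 from -0.17 to 0.84, Mad2l1 from -1.16 to 0.04, Ube2c from -0.33 to 0.60, Cenpe from -0.67 to 0.30, Cenpk from -0.17 to 0.26, Cenpm from -0.52 to 0.28, Cenpn from -0.97 to 0.16, Spc25 from -0.30 to 0.06, Kif11 from -0.43 to 1.04, Kif20a from -0.44 to 0.24, Kif20b from -0.70 to 0.31, Kif4 from -0.96 to 0.10, Prc1 from -0.52 to 0.38, Racgap1 from -0.53 to 0.05, Nusap1 from -0.57 to 0.18, Hmmr from -0.47 to 0.46, Smc2 from -0.23 to 0.13, Smc4 from -0.08 to 0.12, Top2a from -0.50 to 0.09, and Mki67 from -1.01 to 0.82.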
